A study of Mus musculus with 8 samples.

Results

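The 10 genes described here make, conjugate and carry bile acids in the liver or switch that synthesis off: *Cyp7a1*, *Cyp8b1*, *Cyp27a1* and *Cyp7b1* (synthesis), *Slc27a5* and *Baat* (conjugation), *Slc10a1* and *Abcb11* (transport), and *Nr1h4* and *Nr0b2* (control). They were taken by symbol from the GRCm38 gene annotation, with earlier results of these data known. All 10 were among the 18095 genes of the count table and the 14866 genes that passed the expression filter. Liver RNA was sequenced from 4 HFD WT and 4 HFD Inpp4b-/- mice, all male and 12 weeks of age. The mutant mice lack the phosphatase gene *Inpp4b* in the whole body from conception, and both groups received the high-fat diet (HFD), which their dams had also eaten before and after birth. The labels give C57BL/6 as the strain background of both groups and the study's methods name FVB. A difference in genetic background or between cohorts cannot be told apart from the genotype in these libraries.

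Bile acids are made from cholesterol in hepatocytes. In the classic pathway, CYP7A1 adds the first hydroxyl group at the slowest step and CYP8B1 steers the product towards cholic acid, whereas the alternative pathway starts with CYP27A1 in mitochondria and continues with CYP7B1. Bile acids that return from the intestine activate the nuclear receptor FXR, the product of *Nr1h4*, which induces the corepressor SHP, the product of *Nr0b2*. SHP in turn represses transcription of *Cyp7a1* and *Cyp8b1*, in part by acting on the nuclear receptor LRH-1 (*Nr5a2*).

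Libraries held 25893430 to 31427831 counts in HFD WT and 32738435 to 36662531 counts in HFD Inpp4b-/-. *Inpp4b* itself, on chromosome 8 from 81342556 to 82127914, was counted 6, 20, 5 and 8 times in HFD WT replicates 1 to 4 and 33, 10, 9 and 14 times in HFD Inpp4b-/- replicates 1 to 4. It was below the expression filter, and no fall of its counts was seen in the HFD Inpp4b-/- libraries as labelled (two-sided exact permutation test on log2 CPM, n = 4 per genotype, p = 0.486). All directions below therefore rest on the labels. CPM denotes the counts of a gene per 1e+06 counts of its library after TMM normalization. The defining hepatocyte gene *Alb*, of albumin, was at 52515 CPM or more in all 8 libraries, and the hepatocyte markers that were measured, 9 of 10, summed to 82674 to 92072 CPM in HFD WT and 84356 to 105200 CPM in HFD Inpp4b-/-. *Alb* alone averaged 54316 CPM of the sum in HFD WT and 64197 CPM in HFD Inpp4b-/-, and was higher in all HFD Inpp4b-/- libraries than in any HFD WT library. HFD WT replicate 2 stood apart from the other HFD WT libraries in *Cyp2b10*, a drug-inducible cytochrome P450, with 86.8 CPM against at most 1.79 CPM. In bulk tissue, fewer cells of a type and less RNA per cell cannot be told apart.

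The 250 bases before the RefSeq start site are printed for the corepressor gene *Nr0b2*, the bile acid export pump gene *Abcb11* and the cholic acid enzyme gene *Cyp8b1*. Whether the feedback by FXR and SHP acts through these bases was not tested. The sequences are from RefSeq on GRCm38.p6, each written on the strand of its gene, 5′ to 3′. RefSeq windows were found for 6 of the 10 genes, and those of *Cyp7a1*, *Cyp7b1*, *Baat* and *Slc27a5* were not analysed here. Capitals mark matches to TCAAGG, the core letters bound by LRH-1, and to AGGTCA, the half-site shared by many nuclear receptors, which reads TGACCT when it lies on the other strand.
Nr0b2, chr4:133553126-133553375, plus strand: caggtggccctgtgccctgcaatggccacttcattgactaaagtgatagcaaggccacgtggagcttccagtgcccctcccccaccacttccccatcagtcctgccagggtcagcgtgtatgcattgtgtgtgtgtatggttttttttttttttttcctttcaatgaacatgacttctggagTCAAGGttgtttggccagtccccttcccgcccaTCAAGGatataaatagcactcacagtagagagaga
Abcb11, chr2:69342617-69342866, minus strand: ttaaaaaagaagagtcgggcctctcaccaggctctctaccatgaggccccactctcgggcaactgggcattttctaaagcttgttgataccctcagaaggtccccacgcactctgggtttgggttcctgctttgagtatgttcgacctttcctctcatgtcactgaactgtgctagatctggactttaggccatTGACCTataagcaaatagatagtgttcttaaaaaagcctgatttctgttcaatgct
Cyp8b1, chr9:121916306-121916555, minus strand: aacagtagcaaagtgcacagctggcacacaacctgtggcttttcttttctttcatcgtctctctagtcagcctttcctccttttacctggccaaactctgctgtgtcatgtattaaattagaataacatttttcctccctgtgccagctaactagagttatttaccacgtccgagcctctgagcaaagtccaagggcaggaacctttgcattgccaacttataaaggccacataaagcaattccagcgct

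The *Nr0b2* window held TCAAGG at 2 places, from -68 to -63 and from -35 to -30 relative to the start site. The *Abcb11* window held AGGTCA once, on the other strand from -56 to -51, and the *Cyp8b1* window held none of the motifs searched. It does hold CCAAGG, which is TCAAGG with 1 letter changed, and such variants were not searched for in any window. On both strands of 32851 RefSeq windows of the same length, TCAAGG was found in 12.5% and AGGTCA in 14%. The perfect inverted repeat of the half-site AGGTCA spaced by 1 base, the usual form of an FXR site, was in 0.00609% of all windows, and the forkhead motif TGTTTAC was in 3.17%. Neither was in the windows of the 6 genes as a perfect match, and imperfect repeats were not searched for. In the *Abcb11* window the letters up to and including the marked half-site read aggccatTGACCT, which is this repeat with 1 letter changed. Among the other windows, that of *Nr1h4* held AGGTCA once on the other strand, from -214 to -209, but it belongs to a start site inside the gene. These matches are letters in a window and carry no measurement of binding.

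A gene was called differentially expressed at a Benjamini-Hochberg adjusted p under 0.1 over all tested genes and a fold change over 1.3, the study's thresholds, in edgeR's quasi-likelihood test. Of the 10 genes, *Cyp7b1* alone was called, and it was lower in HFD Inpp4b-/- livers. The other 9 genes were not called. Over all 14866 tested genes, 1.17% were called, 0.552% higher and 0.619% lower in HFD Inpp4b-/-. Of the 10 genes, 5 had a fitted log2 fold change above 0 and 5 below, with a median of -0.01 against a median of 0.0027 over all tested genes. *Cyp7b1* was also the only one of the 10 whose HFD Inpp4b-/- and HFD WT libraries did not overlap, which 8.72% of all tested genes showed in either direction 4.09% with HFD Inpp4b-/- lower and 4.63% with it higher. Without adjustment, *Cyp7b1* and *Nr0b2* had p under 0.05, the former lower and the latter higher in HFD Inpp4b-/-. Of all tested genes, 13.9% had such a p, 7.14% lower and 6.8% higher.

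**Figure D1:**
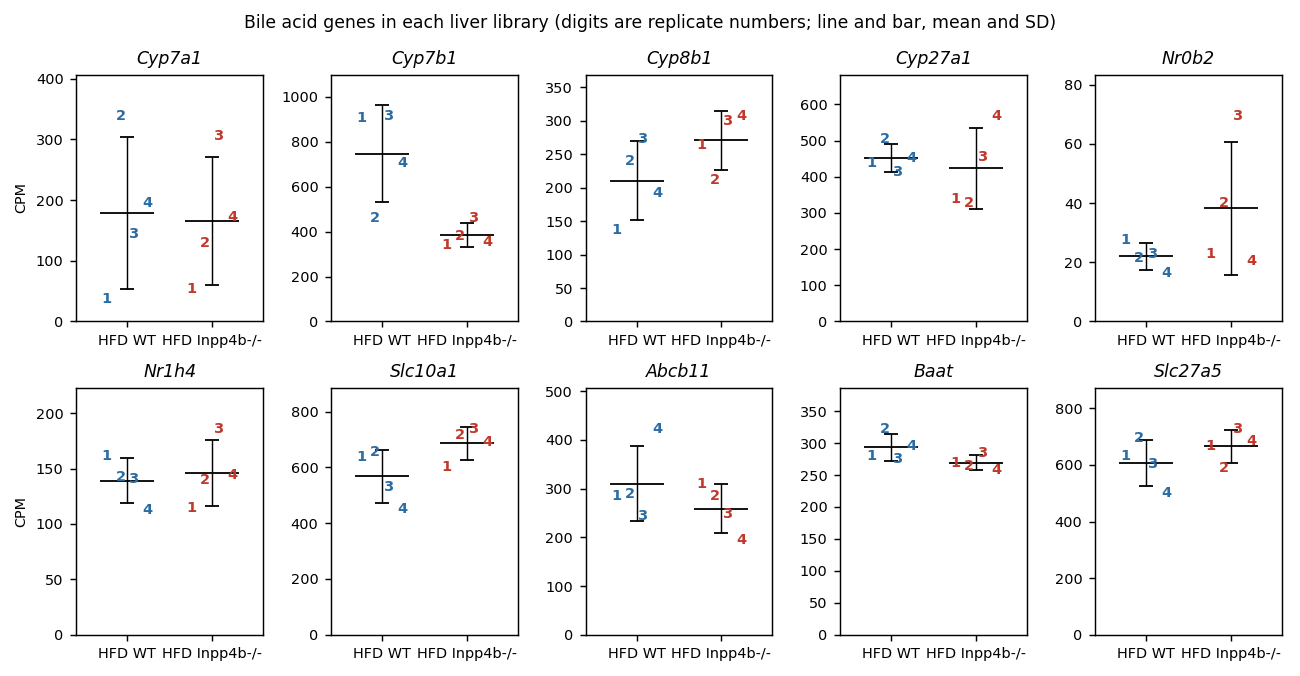
Level of each of the 10 bile acid genes (y axis, CPM from 0) in HFD WT (blue) and HFD Inpp4b-/- (red) livers, with each library drawn as its replicate number, a horizontal line at the mean and bars of 1 SD (n = 4). *Cyp7b1* is the only gene whose groups do not overlap, and *Cyp7a1* spans 37.7 to 339 CPM within HFD WT.

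*Cyp7b1*, on the minus strand of chromosome 3 from 18071950 to 18243338, encodes the oxysterol 7α-hydroxylase that acts after CYP27A1 in the alternative pathway. Its level was 907, 461, 917 and 706 CPM in HFD WT replicates 1 to 4 and 341, 381, 460 and 354 CPM in HFD Inpp4b-/- replicates 1 to 4. HFD WT replicate 2, the lowest of its group, was at 461.4 CPM and HFD Inpp4b-/- replicate 3, the highest of its group, at 460.3 CPM, so that the groups separated by a margin far smaller than the spread within either. The mean was 748 ± 214 CPM in HFD WT and 384 ± 53.5 CPM in HFD Inpp4b-/- (SD, n = 4 each). This was a log2 fold change of -0.96 (SE 0.21, 95% interval -1.42 to -0.50, edgeR adjusted p = 0.0869), or a level 1.95-fold higher in HFD WT.

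The direction of the *Cyp7b1* difference was the same without each library in turn, with log2 fold changes of -1.15 to -0.85, but the call was kept only without HFD WT replicate 2 (log2 fold change -1.15, edgeR adjusted p = 0.0133), when 2.26% of all tested genes were called. Without any other library the edgeR adjusted p was 0.118 to 0.238, so the call rests on all 7 of these libraries. DESeq2 gave an adjusted p of 0.000831, in a test that called 4.04% of its genes. The small nuclear RNA gene *Gm23686* lies inside *Cyp7b1* on the same strand and had at most 15 counts in a library, against at least 12277 for *Cyp7b1*.

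*Cyp7b1* is known to be more highly expressed in livers of male than of female mice. A list of 10 other male-biased liver genes, written after the *Cyp7b1* values were known, summed to 5549 to 8579 CPM in HFD WT and 3901 to 4745 CPM in HFD Inpp4b-/-, and the groups did not overlap. This separation of the sums came from *Mup20*, without which the other 9 summed to 3920 to 5004 CPM in HFD WT and 3626 to 4216 CPM in HFD Inpp4b-/-, with overlap. Of the 10 genes, edgeR called 2, both lower in HFD Inpp4b-/-, against 0.619% of all tested genes called lower, and DESeq2 called these and *Hsd3b5* and *Ugt2b1* (adjusted p = 0.0277 and 0.0579), against 4.04% in either direction. In edgeR, 9 had a log2 fold change below 0, with a median of -0.61. The 2 called genes were *Cyp4a12b*, a fatty acid hydroxylase with a near copy, *Cyp4a12a*, that can share its reads (log2 fold change -2.97, SE 0.34, edgeR adjusted p = 0.00787), and *Mup20*, a major urinary protein of a large family of near copies (log2 fold change -2.61, SE 0.42, edgeR adjusted p = 0.0327). *Cyp4a12b* averaged 37.8 CPM in HFD WT and 4.81 CPM in HFD Inpp4b-/-. *Cyp4a12a*, also in the list, averaged 512 and 440 CPM and was not called (log2 fold change -0.22, edgeR adjusted p = 0.414). The call of *Cyp4a12b* was kept without each library in turn, and that of *Mup20* was lost without HFD Inpp4b-/- replicate 2 or 3 (edgeR adjusted p = 0.125 and 0.118). *Cyp2d9* and *Slco1a1*, both of which are also male-biased, had log2 fold changes of 0.0081 and -0.02. Of 10 female-biased genes, 7 were measured and 3 passed the filter, and *Cyp2b9*, a cytochrome P450, was called higher (log2 fold change 4.93, SE 0.85, edgeR adjusted p = 0.0433). Leaving out any of 3 libraries, replicate 1 of HFD WT and replicates 2 and 3 of HFD Inpp4b-/-, ended its call (edgeR adjusted p = 0.115 to 0.121). *Acot3* and *Cyp2a4* also passed the filter and were not called (log2 fold changes of 0.54 and -0.01). Without HFD WT replicate 2, *Acot3* was called higher (log2 fold change 2.06, edgeR adjusted p = 0.0133). DESeq2 called *Cyp2b9* and *Cyp2b13* higher and *Cyp3a16* lower. *Cyp3a16* averaged 0.52 CPM in HFD WT and 0.054 CPM in HFD Inpp4b-/-. The female-biased genes summed to 6.2 to 58 CPM in HFD WT, with HFD WT replicate 2 the highest, and 46.3 to 196 CPM in HFD Inpp4b-/-. *Acot3* made up 42.5 CPM of the sum in HFD WT replicate 2. *Cyp2b9* made up 29.2 to 173 CPM of the sums in HFD Inpp4b-/-. The part of these genes in the *Cyp7b1* difference was not tested.

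*Cyp27a1*, on chromosome 1 from 74713574 to 74737892, encodes the sterol 27-hydroxylase that precedes CYP7B1. Its level was 439, 504, 412 and 453 CPM in HFD WT replicates 1 to 4 and 339, 329, 456 and 569 CPM in HFD Inpp4b-/- replicates 1 to 4. The HFD Inpp4b-/- libraries lay both below and above all HFD WT libraries. It had a log2 fold change of -0.10 (SE 0.17, 95% interval -0.48 to 0.29, edgeR adjusted p = 0.845). The first enzyme of the alternative pathway was not called, and whether its change differed from that of *Cyp7b1* was not tested.

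*Cyp7a1*, on chromosome 4 from 6265612 to 6275633, encodes the rate-limiting cholesterol 7α-hydroxylase of the classic pathway. It was at 37.7, 339, 144 and 195 CPM in HFD WT replicates 1 to 4 and at 53.7, 130, 306 and 172 CPM in HFD Inpp4b-/- replicates 1 to 4. Both groups covered almost the same range, with replicate 1 lowest in each, and the highest library was 8.99 times the lowest in HFD WT and 5.7 times in HFD Inpp4b-/-. The SD of log2 CPM within a genotype was 1.2, against a median of 0.262 over all tested genes, and was larger than that of 98.6% of them. The fitted log2 fold change was -0.12 (SE 0.61, edgeR adjusted p = 0.953), with a 95% interval of -1.49 to 1.25. With 4 livers per genotype, the interval does not exclude differences of up to about that size in either direction. It stands at an unadjusted p of 0.05, whereas a call asks for a smaller p, so larger differences could also go uncalled. Without HFD WT replicate 2 the log2 fold change was 0.38 (edgeR adjusted p = 0.806).

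*Cyp7a1* is known to follow the time of day and feeding, and the labels give neither. The 16 clock genes summed to 976 to 1087 CPM in HFD WT and 990 to 1041 CPM in HFD Inpp4b-/-. This sum pools genes that peak at different times of day, so like sums cannot show like times of sampling. Of the 15 that passed the filter, edgeR called 0. At an unadjusted p under 0.05, *Dbp* was higher and *Per1* lower in HFD Inpp4b-/-, and DESeq2 called *Per1*. *Per1*, a light- and feeding-responsive clock gene, was at 98.6, 67.7, 41 and 95.4 CPM in HFD WT and 42.3, 32.4, 38.4 and 41.7 CPM in HFD Inpp4b-/- (log2 fold change -0.97, SE 0.24, edgeR adjusted p = 0.136, DESeq2 adjusted p = 0.00713). Without HFD WT replicate 3, the lowest of its group, edgeR called *Per1* too (log2 fold change -1.17, adjusted p = 0.0272). Whether the livers were taken at like times was not tested.

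*Cyp8b1*, the sterol 12α-hydroxylase gene on chromosome 9 from 121914356 to 121916305, was at 137, 240, 272 and 192 CPM in HFD WT replicates 1 to 4. In HFD Inpp4b-/- replicates 1 to 4 it was at 263, 211, 300 and 308 CPM, so that 2 libraries lay above all HFD WT libraries and the groups overlapped. Its fitted difference was a log2 fold change of 0.36 (SE 0.20, 95% interval -0.09 to 0.81, edgeR adjusted p = 0.463).

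**Figure D2:**
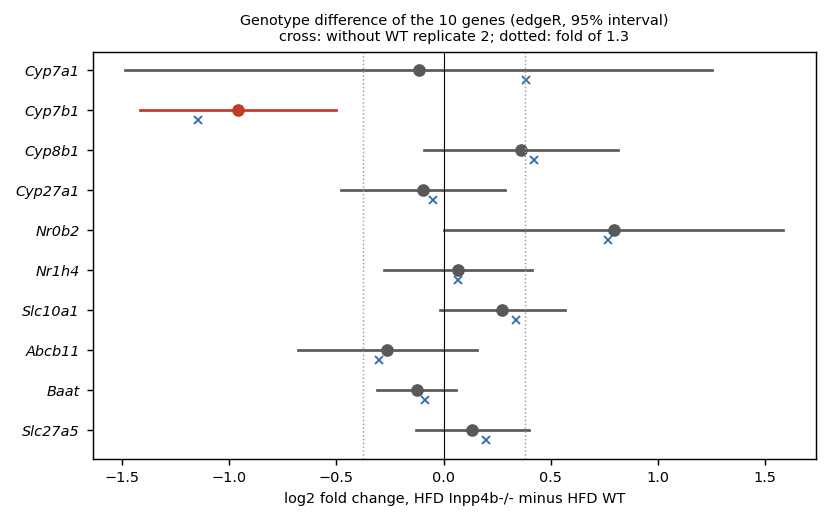
Fitted log2 fold change of the 10 genes, HFD Inpp4b-/- minus HFD WT (x axis), with 95% intervals from edgeR (n = 4 per genotype). Red marks the called gene, crosses mark the values without HFD WT replicate 2 and dotted lines a fold of 1.3. Only the interval of *Cyp7b1* lies wholly beyond a dotted line, and that of *Cyp7a1* runs from -1.49 to 1.25.

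The relative mRNA levels of *Cyp7b1*, *Cyp8b1* and *Cyp7a1* within a liver do not depend on library scaling, and were described by ratios of counts per kb of exon. These ratios do not measure the use of either pathway. The ratio of *Cyp7b1* to *Cyp7a1* was 46.4, 2.62, 12.2 and 6.96 in HFD WT replicates 1 to 4 and 12.2, 5.66, 2.9 and 3.98 in HFD Inpp4b-/- replicates 1 to 4. *Cyp7b1* exceeded *Cyp7a1* per kb in all 8 livers, and the groups overlapped over most of their range. The mean log2 ratio was 3.34 ± 1.73 in HFD WT and 2.41 ± 0.89 in HFD Inpp4b-/- (SD, n = 4 each). The ratio of *Cyp8b1* to *Cyp7a1* was 7.8, 1.52, 4.04 and 2.1 in HFD WT and 10.5, 3.48, 2.1 and 3.83 in HFD Inpp4b-/-. Its mean log2 value was 1.66 ± 1.05 in HFD WT and 2.05 ± 0.97 in HFD Inpp4b-/-, a difference smaller than either SD.

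**Figure D3:**
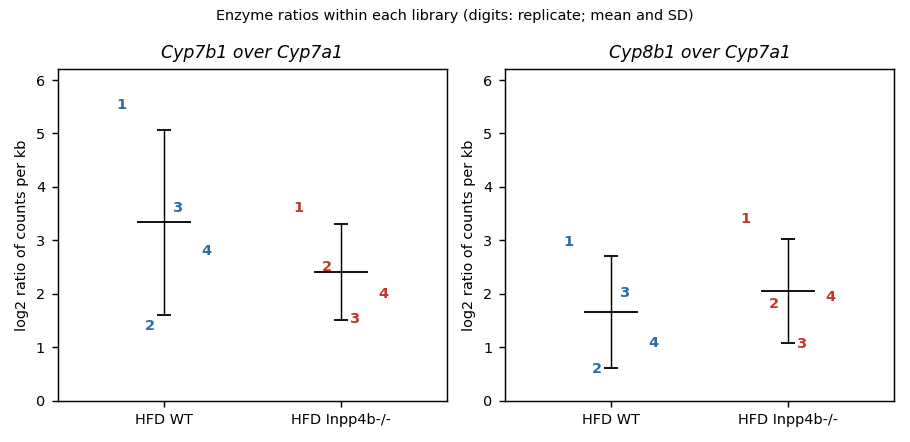
Log2 ratio of counts per kb of exon of *Cyp7b1* over *Cyp7a1* and of *Cyp8b1* over *Cyp7a1* (y axes) in each HFD WT (blue) and HFD Inpp4b-/- (red) liver, drawn as replicate numbers with the mean and 1 SD (n = 4). All values lie above 0 and the genotypes overlap in both panels.

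*Slc27a5* encodes the bile acyl-CoA synthetase that activates bile acids, and *Baat* the enzyme that then joins them to taurine or glycine. *Slc27a5*, on chromosome 7 from 12988346 to 12998192, was at 631, 696, 602 and 499 CPM in HFD WT and 667, 588, 727 and 685 CPM in HFD Inpp4b-/- (replicates 1 to 4). Its groups overlapped, with a log2 fold change of 0.13 (SE 0.12, 95% interval -0.13 to 0.40, edgeR adjusted p = 0.655). *Baat*, on chromosome 4 from 49489422 to 49506557, was at 280, 322, 275 and 296 CPM in HFD WT and 270, 264, 285 and 257 CPM in HFD Inpp4b-/-. It was the steadiest of the 10 genes, with a highest library 1.17 times the lowest in HFD WT and 1.11 times in HFD Inpp4b-/-. For *Baat*, the log2 fold change was -0.12 (SE 0.083, edgeR adjusted p = 0.542), and its 95% interval of -0.31 to 0.06 lies within a fold of 1.3 in either direction.

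*Slc10a1* encodes NTCP, the sodium-dependent transporter that takes bile acids up from blood. The gene, on chromosome 12 from 80953183 to 80968705, was at 636, 656, 528 and 451 CPM in HFD WT and 602, 715, 738 and 691 CPM in HFD Inpp4b-/- (replicates 1 to 4). In HFD Inpp4b-/-, 3 libraries were above all HFD WT libraries and replicate 1 was within their range. Its log2 fold change was 0.27 (SE 0.13, 95% interval -0.02 to 0.57, edgeR adjusted p = 0.39).

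*Abcb11* encodes BSEP, the pump that exports bile acids into bile and a classic target of FXR. It lies on chromosome 2 from 69238282 to 69342616 and was at 286, 289, 244 and 422 CPM in HFD WT and 309, 285, 247 and 194 CPM in HFD Inpp4b-/- (replicates 1 to 4). Replicate 4 was the highest library in HFD WT and the lowest in HFD Inpp4b-/-, and the other 6 libraries lay together. The log2 fold change was -0.26 (SE 0.19, 95% interval -0.68 to 0.16, edgeR adjusted p = 0.577). The antisense gene *Gm13613*, which overlaps *Abcb11*, had at most 16 counts in a library, and the strand setting of the counting is not given in the sources used here.

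*Nr1h4*, the gene of the bile acid receptor FXR, lies on chromosome 10 from 89454234 to 89533585. Its level was 161, 143, 140 and 113 CPM in HFD WT and 114, 140, 186 and 144 CPM in HFD Inpp4b-/- (replicates 1 to 4), with overlapping groups. This gave a log2 fold change of 0.07 (SE 0.15, 95% interval -0.28 to 0.41, edgeR adjusted p = 0.88).

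*Nr0b2*, the gene of SHP on chromosome 4 from 133553376 to 133556536, had the largest positive log2 fold change of the 10 genes but did not pass the test. It was at 27.7, 21.4, 22.7 and 16.3 CPM in HFD WT and 22.9, 39.9, 69.6 and 20.5 CPM in HFD Inpp4b-/- (replicates 1 to 4). Replicates 2 and 3 of HFD Inpp4b-/- were above all HFD WT libraries, and replicates 1 and 4 were within their range. The log2 fold change was 0.79 (SE 0.36, 95% interval 0.00082 to 1.59), with an unadjusted p of 0.0498 and an edgeR adjusted p of 0.358. Without HFD Inpp4b-/- replicate 3 it was 0.34.

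**Figure D4:**
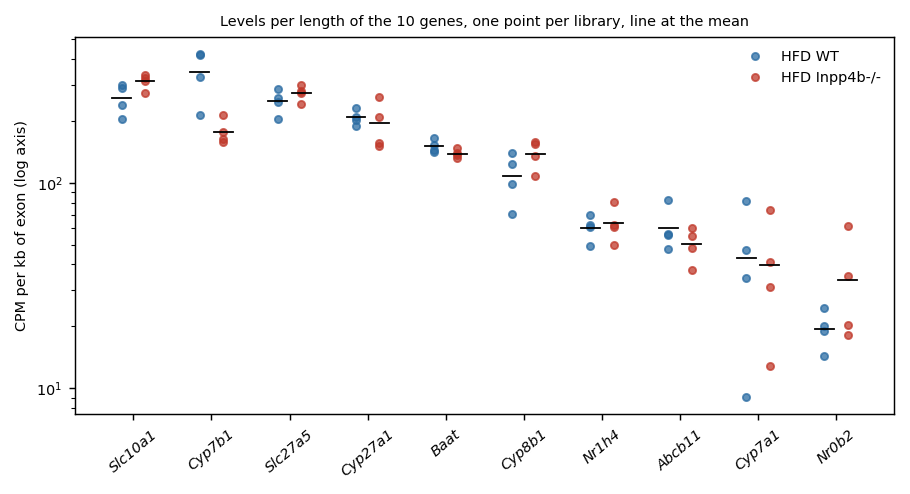
Level per length of the 10 genes (y axis, CPM per kb of exon, log scale), 1 point per library in HFD WT (blue) and HFD Inpp4b-/- (red), with lines at the means and genes ordered by their mean over both genotypes. *Slc10a1* and *Cyp7b1* are at the top and *Cyp7a1* and *Nr0b2* at the bottom.

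Levels of different genes were compared as CPM per kb of exon. In HFD WT, *Cyp7b1* was the most abundant of the 10 at 345 ± 98.9, followed by *Slc10a1* at 258 ± 43.5, *Slc27a5* at 249 ± 33.6, *Cyp27a1* at 208 ± 17.8, *Baat* at 151 ± 10.9 and *Cyp8b1* at 108 ± 30.2 (SD, n = 4). *Nr1h4* at 60.5 ± 8.65, *Abcb11* at 60.3 ± 15, *Cyp7a1* at 42.9 ± 30 and *Nr0b2* at 19.4 ± 4.13 followed. Neighbours from *Cyp7b1* to *Slc27a5* in this order, and those from *Nr1h4* to *Nr0b2*, were apart by less than the larger of their SDs. In HFD Inpp4b-/-, *Slc10a1* came first at 312 ± 27 and *Cyp7b1*, at 177 ± 24.7, came after *Slc27a5* at 273 ± 24 and *Cyp27a1* at 195 ± 52. Next came *Cyp8b1* and *Baat*, at 139 each, *Nr1h4* at 63.4, *Abcb11* at 50.3, *Cyp7a1* at 39.6 and *Nr0b2* at 33.8.

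For *Cyp7a1*, *Cyp7b1*, *Cyp8b1* and *Nr0b2*, the genes with the most similar pattern were found by the smallest mean absolute difference of centred log2 CPM over the 8 libraries. The nearest to *Cyp7b1* were *Ccne1*, *Fmn2* and *Cadm4*, at distances of 0.104, 0.109 and 0.121. The nearest to *Cyp7a1*, *Twf2*, *Angptl8* and *1810010H24Rik*, were at 0.444 to 0.496, farther than for the other 3 genes. For *Cyp8b1* the nearest were *Dhx35*, *Aamdc* and *Mum1* (0.109 to 0.124), and for *Nr0b2* they were *Anapc10*, *Pcm1* and *Vegfc* (0.26 to 0.276). These distances are descriptions over 8 libraries that share the genotype split. They are not scaled by a gene's own spread, so they should not be compared between genes. The SD of log2 CPM within a genotype was 1.2 for *Cyp7a1*, 0.614 for *Nr0b2*, 0.355 for *Cyp7b1* and 0.353 for *Cyp8b1*.

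Around the 10 genes, 5 lists of other bile acid genes were described, with 70 distinct genes of which 63 were tested. *Foxa2* was the only gene of these lists that was called, and 19% of the 63 genes had an unadjusted p under 0.05, 7 higher and 5 lower in HFD Inpp4b-/-, against 13.9% of all tested genes. The groups did not overlap for 8 of them (12.7%), 6 higher and 2 lower, against 8.72% of all tested genes, 4.63% higher and 4.09% lower.

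FOXA2 is a forkhead transcription factor of hepatocytes with known targets among bile acid transporter genes. *Foxa2* was at 28.6, 27.4, 25 and 42.3 CPM in HFD WT and 60.7, 86.2, 54.1 and 74.1 CPM in HFD Inpp4b-/- (replicates 1 to 4). All HFD Inpp4b-/- libraries were above all HFD WT libraries. The log2 fold change was 1.16 (SE 0.19, 95% interval 0.73 to 1.59, edgeR adjusted p = 0.0351). It was 1.03 to 1.35 without each library in turn, and the call was lost without HFD WT replicate 1 (edgeR adjusted p = 0.103) and without HFD Inpp4b-/- replicate 2 (edgeR adjusted p = 0.109). Among the 17 tested regulators the median log2 fold change was 0.0082. *Nr5a2*, which encodes LRH-1, had the lowest log2 fold change of them at -0.39 (SE 0.18, edgeR adjusted p = 0.372). *Hnf4a* and the genes of an FGF receptor and its coreceptor, *Fgfr4* and *Klb*, were among the regulators not called, and *Vdr* and *Gpbar1* were not analysed here.

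Of 15 tested synthesis enzymes other than the 4 above, 0 were called, 4 had an unadjusted p under 0.05 with a higher level in HFD Inpp4b-/- and 1 with a lower level, and the median log2 fold change was 0.05. The lower one was *Cyp2c70*, which makes the muricholic acids typical of mice. It was at 899, 712, 709 and 471 CPM in HFD WT and 146, 176, 380 and 448 CPM in HFD Inpp4b-/-, without overlap (log2 fold change -1.28, SE 0.35, edgeR adjusted p = 0.171). *Cyp46a1*, the cholesterol 24-hydroxylase, was at 2.69, 7.15, 3.5 and 3.26 CPM in HFD WT and 9.96, 13, 9.11 and 8.54 CPM in HFD Inpp4b-/-, also without overlap (log2 fold change 1.28, SE 0.30, edgeR adjusted p = 0.112). Without HFD WT replicate 2, *Cyp46a1* was called (log2 fold change 1.68, edgeR adjusted p = 0.0133), and DESeq2 called both *Cyp46a1* and *Cyp2c70* (adjusted p = 0.00195 and 0.00769).

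The groups did not overlap for 4 other enzymes or carriers of the list. *Slc27a2*, a very long chain acyl-CoA synthetase gene, was at 1011 to 1264 CPM in HFD WT and 1449 to 1593 CPM in HFD Inpp4b-/- (log2 fold change 0.38, SE 0.097, edgeR adjusted p = 0.138). *Abcd3*, which encodes a peroxisomal importer of bile acid precursors, was at 535 to 592 CPM in HFD WT and 659 to 754 CPM in HFD Inpp4b-/- (log2 fold change 0.32, SE 0.085, edgeR adjusted p = 0.153). *Acot8* and *Hsd17b4*, had log2 fold changes of 0.36 and 0.18. The groups of *Amacr*, *Acox2* and *Scp2*, which act in the same peroxisomal shortening of the side chain as *Acot8* and *Hsd17b4*, overlapped, with log2 fold changes of -0.02, 0.06 and 0.02. Neither edgeR nor DESeq2 called any of these genes. In DESeq2, *Slc27a2* and *Abcd3* passed the adjusted p (0.0108 and 0.0131) but not the fold change (log2 fold changes of 0.37 and 0.32). The 4 genes without overlap were picked for description after their values were seen.

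Among 15 tested transporters other than NTCP and BSEP, 0 were called and 1 had an unadjusted p under 0.05, with a median log2 fold change of 0.14. That gene was *Abcg5*, which with *Abcg8* forms the pump for cholesterol and plant sterols. It was at 94.7, 146, 85.5 and 98.1 CPM in HFD WT and 157, 121, 131 and 168 CPM in HFD Inpp4b-/- (log2 fold change 0.44, SE 0.17, edgeR adjusted p = 0.296). Without HFD WT replicate 2 it was called (log2 fold change 0.63, edgeR adjusted p = 0.0726). Among its genes that averaged at least 50 counts, the highest and lowest log2 fold changes were those of *Abcb1a* at 0.61 (SE 0.53, edgeR adjusted p = 0.654) and of the uptake transporter *Slco1a4* at -0.74 (SE 0.73, edgeR adjusted p = 0.697). *Slco1a4* was at 154 CPM in HFD WT replicate 2 and at 21.6 CPM or less in the other HFD WT libraries, and without that library its log2 fold change was 0.77.

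Of 9 tested FXR target genes, 0 were called and 0 had an unadjusted p under 0.05. *Pltp*, a phospholipid transfer protein gene, had the largest log2 fold change of them at 0.83 (SE 0.38, edgeR adjusted p = 0.366), and *Osgin1* the lowest at -0.32 (SE 0.25, edgeR adjusted p = 0.622). *Pltp* was at 45.7 CPM in HFD Inpp4b-/- replicate 4 and at 13.4 to 20.7 CPM in the others of that group, and without replicate 4 its log2 fold change was 0.35. Of 10 tested genes of bile acid detoxification, 0 were called, 1 had an unadjusted p under 0.05 with a higher level in HFD Inpp4b-/- and 3 with a lower level. The higher one was *Cyp3a13* (log2 fold change 0.90, SE 0.34, edgeR adjusted p = 0.281), and the lower ones were *Cyp3a11*, *Cyp2b10* and *Ugt1a1*. Without HFD WT replicate 2 there were 2 higher and 0 lower. *Cyp2b10* had a log2 fold change of -4.82 (SE 1.73, edgeR adjusted p = 0.264) that changed to -0.69 without HFD WT replicate 2. DESeq2 called 0 genes of the transporter, FXR target and detoxification lists. For *Cyp3a11*, the main bile acid hydroxylase of this list, HFD WT replicate 2 was at 7866 CPM and the other HFD WT libraries at 889 to 2237 CPM, and its log2 fold change went from -1.76 to -0.87 without replicate 2.

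**Figure D5:**
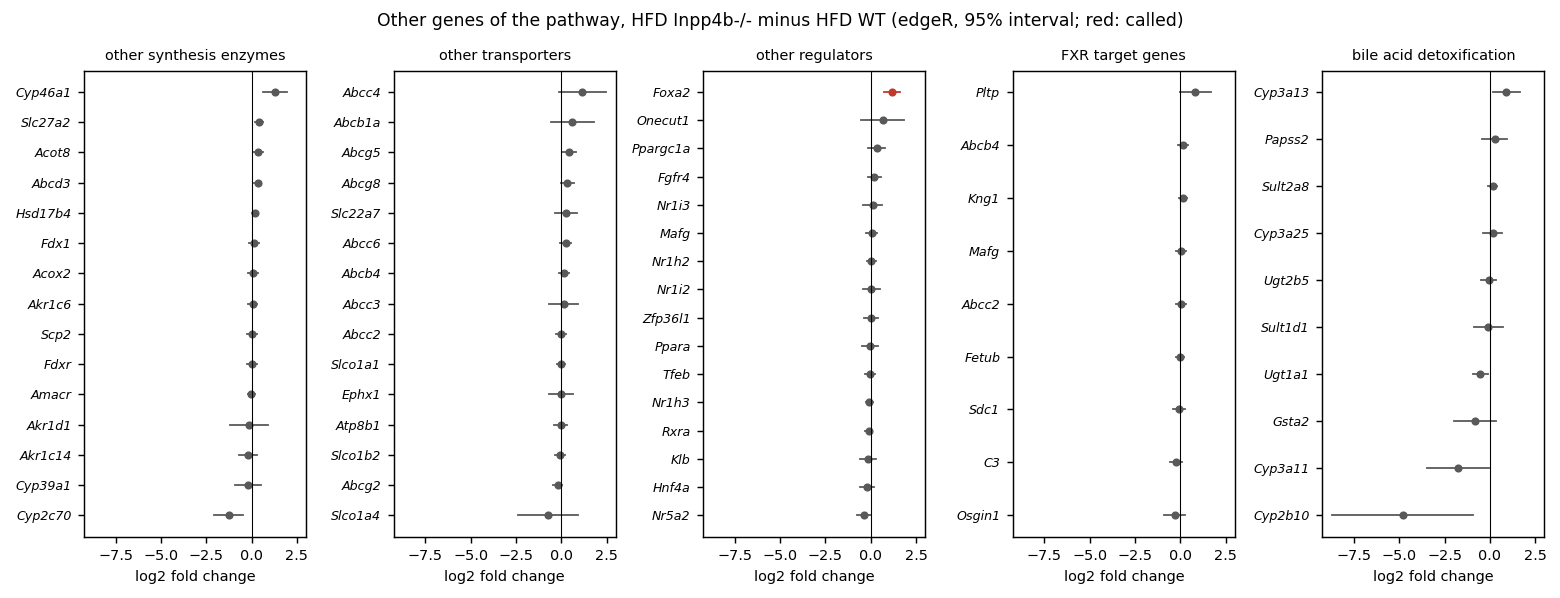
Fitted log2 fold changes, HFD Inpp4b-/- minus HFD WT (x axes, shared scale), with 95% intervals from edgeR (n = 4 per genotype) for the tested genes of the 5 lists other than 1 regulator, ordered by value. Red marks *Foxa2*, the only called gene, and the widest interval is that of *Cyp2b10*.

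Of the 9 measured hepatocyte markers, edgeR called 0. At an unadjusted p under 0.05, *Ttr* was higher and *Serpina1a* and *Tat* were lower in HFD Inpp4b-/- (log2 fold changes 0.31, -0.48 and -1.08). DESeq2 called *Serpina1a* lower (adjusted p = 0.0124). Markers of other liver cells and of hepatocyte zones had overlapping sums in the 2 genotypes. Bile duct cell markers summed to 51.5 to 93.3 CPM in HFD WT and 54.8 to 83.2 CPM in HFD Inpp4b-/-. EdgeR called 0 of the 8 measured. At an unadjusted p under 0.05, 2 were higher in HFD Inpp4b-/-, *Spp1* and *Pkhd1* (log2 fold changes 0.54 and 0.81), and DESeq2 called both. Another 2 were lower, *Slc10a2* and *Sox9* (log2 fold changes -0.88 and -0.71). *Slc10a2* alone averaged 43.1 CPM of the sum in HFD WT and 23.3 CPM in HFD Inpp4b-/-, and *Spp1* 19.9 and 28.9 CPM. Pericentral markers, of the zone around the central vein in which *Cyp7a1* is mainly expressed, summed to 6891 to 11440 CPM in HFD WT and 8220 to 9321 CPM in HFD Inpp4b-/-. *Cyp2e1* alone averaged 7127 and 6432 CPM of these. Of the 10 pericentral markers, 8 had a log2 fold change below 0, with a median of -0.24. *Axin2* and *Tbx3* were lower at an unadjusted p under 0.05 (log2 fold changes -0.76 and -0.75, and -0.52 and -0.55 without HFD WT replicate 2). Periportal markers summed to 8489 to 11021 CPM and 7617 to 11460 CPM, with 6 log2 fold changes above 0 and 4 below. *Hal* and *Hsd17b13* were higher at an unadjusted p under 0.05 (log2 fold changes 0.30 and 0.34). Neither edgeR nor DESeq2 called any pericentral or periportal marker. Kupffer cell and leukocyte markers summed to 41.7 to 122 CPM in HFD WT and 90.5 to 142 CPM in HFD Inpp4b-/-, and stellate cell and endothelial markers to 119 to 159 CPM and 132 to 183 CPM. Of the last list, edgeR called 0 of 10, with 3 at an unadjusted p under 0.05 and higher in HFD Inpp4b-/-, *Lrat*, *Col1a1* and *Col3a1*. *Lrat*, the retinol acyltransferase gene of stellate cells, was at 6.38, 11.2, 7.51 and 6.45 CPM in HFD WT and 16, 12.2, 11.3 and 12.9 CPM in HFD Inpp4b-/-, without overlap (log2 fold change 0.73, SE 0.20, edgeR adjusted p = 0.164). DESeq2 called it (adjusted p = 0.031), as did edgeR without HFD WT replicate 2 (adjusted p = 0.0377). Red cell markers summed to 114 to 431 CPM and 208 to 346 CPM, with *Hba-a2*, which can share reads with its copy *Hba-a1*, called lower (log2 fold change -2.92, edgeR adjusted p = 0.057). *Hba-a2* averaged 3.15 CPM in HFD WT and 0.41 CPM in HFD Inpp4b-/-. *Hba-a1* averaged 99.8 and 180 CPM and was not called (log2 fold change 0.85, edgeR adjusted p = 0.443). The call of *Hba-a2* was kept only without HFD WT replicate 2 or 4 and was lost without any of the other 6 libraries, with an edgeR adjusted p of up to 0.178. Of the adipocyte, intestine and pancreas markers, 4 of 10 were measured, at sums of 114 to 132 CPM and 127 to 167 CPM. Their part in the differences above was not tested.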

How the data were processed

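Total liver RNA was depleted of rRNA per the labels, and libraries were made with the NEBNext Ultra kit, which the study's methods also name, for paired-end sequencing of 150-bp reads. The authors aligned the reads to GRCm38 with HISAT2, counted them per gene with HTSeq and deposited raw counts, which were used here. The deposited normalized table was not used. The annotation release and strand setting are not given in the sources used here. Symbols, coordinates and exon lengths came from GENCODE M21, to which all 18095 identifiers matched.

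Groups came from the labels. Whether replicates are separate mice rests on the labels' separate titles, and no pair of libraries agreed within sampling noise (chi-square per degree of freedom of at least 29.7). Counts were fitted across all genes with edgeR 4.0.16 (filterByExpr, TMM, glmQLFit and glmQLFTest, no covariate), and SEs and 95% intervals came from that fit. *Inpp4b* was tested on log2(CPM + 0.1). Depth was 25893430 to 36662531 counts per library. As alternatives, DESeq2 1.42.0, other normalizations, filters, thresholds and lengths, a replicate block and fits without each library in turn were used. The procedure was tested on simulated data. R 4.3.3, Python 3.11.15 and scipy 1.17.1 were used.

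The 10 genes and all lists were chosen with earlier results of these data known. Named from the other lists were called genes and, per bile acid list, the highest and lowest log2 fold change among genes averaging at least 50 counts. Other named genes (*Slc27a2*, *Abcd3*, *Acot8*, *Hsd17b4*, *Abcg5*, *Cyp3a11*, *Ugt1a1*, *Per1*, *Dbp*, *Amacr*, *Acox2*, *Scp2*, the markers and the sex-biased genes) were chosen after their values were seen. Values of 1 regulator gene are not reported here, although the counts per list include it.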

Additional observations from a re-analysis of the deposited data

Results flagged for a closer look

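Of 94 groups of 4 libraries examined, 5 held a library far from the other 3 (past Dixon's 95% limit), where chance, about 1 in 20, would give 4.7. In 4 of the 5 the library was HFD WT replicate 2. It had 86.8 CPM of *Cyp2b10* where the other 3 had at most 1.79 CPM, 154 CPM of *Slco1a4* against at most 21.6 CPM, and 10.3 CPM of *Cyp2b9* against at most 1.66 CPM. It also had a summed level of 58 CPM for the female-biased liver genes, which include *Cyp2b9*, against at most 9.07 CPM. HFD Inpp4b-/- replicate 4 had 807 CPM of *Mup20* against at most 299.7 CPM in the rest of its group. None of the 10 bile acid genes held such a library in either genotype.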

How the results depend on the processing

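The 174 calls over all genes became 688 with DESeq2, 71 at an adjusted p under 0.05, 26 with the replicate block and 53 to 345 without each library in turn. Of the 10 bile acid genes, 1 was called, against 0 with the replicate block, 0 at an adjusted p under 0.05 and 0 to 1 without each library. *Cyp7b1* kept its direction in 17 of 17 alternatives and lost its call in 9. Its log2 fold change was -0.92 with the block, -0.96 (adjusted p = 0.0869) when an adjusted p under 0.05 was required, and -1.15 to -0.85 without each library. The numbers do not pair the samples, since deviations of same-numbered libraries correlated at -0.17 to -0.01, so the block result is given here alone. In the other bile acid lists, the 1 gene called higher and 0 called lower became 2 and 1 with DESeq2, and 0 to 3 and 0 without each library. Signs of uncalled log2 fold changes turned for *Cyp7a1* (0.016 with the block, -0.60 to 0.38 without each library), *Cyp27a1* (-0.27 to 0.0085 without each library), *Nr1h4* (-0.068 to 0.17 without each library) and *Slco1a4* (0.17 with the block, -1.06 to 0.77 without each library). With the longest transcript as length, levels in CPM per kb were 325 in HFD WT and 392.5 in HFD Inpp4b-/- for *Slc10a1*, and in HFD WT 239 for *Cyp27a1* and 69.2 for *Nr1h4*, since the length is shorter. The cause of the other changes was not tested. Wide spread between livers limits *Cyp7a1* and *Nr0b2*, and 4 livers per genotype limit all genes.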
